A study of Arabidopsis thaliana with 12 samples.

Results

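KAR and FATB are nuclear genes of fatty acid synthesis in the plastid of Arabidopsis thaliana. They were followed here through the 1 probe that the platform annotation assigns to each gene alone, which is probe 4426 for KAR (AT1G24360) and probe 1421 for FATB (AT1G08510). These are 2 of the 691 genes that have a probe of their own, among 3439 probes in the deposited table. The 6 samples of the ascorbate group came from wild-type material of the Columbia 0 ecotype that was given water for 4 h and then 25 mM ascorbate at pH 5.5 for 4 h. The 6 samples of the water group came from the same genotype after 8 h in water. Total RNA was read in 1 channel of an array per sample. The labels name no tissue or age, and no pH for the water, so ascorbate, its pH and the change of solution cannot be told apart. They number the samples 1 to 6 in each group without saying whether the numbers are separate plants, so the p-values cover just the variation among these samples, some or all of which could be technical.

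In plants, the carbon chains of membrane lipids are built in the plastid on acyl carrier protein (ACP), a small protein that holds the growing chain. In each round of elongation a condensing enzyme adds carbon, and ketoacyl-ACP reductase, the product of KAR, carries out the first reduction with NADPH. Thioesterases end the cycle by releasing the free fatty acid for export, and FATB is the thioesterase that prefers saturated chains such as palmitate, while the FATA enzymes prefer oleate. KAR thus acts inside the cycle and FATB at an exit from it. No sequence of either gene is shown, since none was among the sources used here.

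The deposited values are probe intensities on a relative linear scale, and the number of arrays limits their precision. The summed intensity per array lay between 3054 and 3562, and the brightest probe stood at 100 on 9 of the 12 arrays. Ascorbate arrays 1 and 2 were dim in their lower range, with median intensities of 0.252 and 0.259, against 0.383 to 0.485 on the other 10 arrays. Of 94 loci of fatty acid and lipid metabolism placed in 9 lists, 3 had a probe of their own: KAR, FATB and the desaturase family gene AT5G16230. None of 21 loci listed as markers of roots, leaf photosynthesis or senescence had one, so the plant part could not be checked.

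KAR transcript signal was higher in ascorbate than in water in every replicate number, by a modest margin. In RNA from whole samples, a change per cell and a change in the mix of cells cannot be told apart. Its deposited intensity on ascorbate arrays 1 to 6 was 1.31, 1.39, 1.61, 1.49, 1.37 and 1.42, against 1.07, 1.10, 1.25, 1.19, 1.18 and 1.21 on water arrays 1 to 6. The lowest ascorbate array lay above the highest water array, so the groups did not overlap on this scale. Of the 3266 probes tested, 2.48% were separated in this way and direction. The mean was 1.43 ± 0.10 in ascorbate and 1.17 ± 0.07 in water (SD, n = 6 each).

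Within a replicate number, the deposited KAR intensity in ascorbate was 1.23, 1.26, 1.29, 1.25, 1.16 and 1.17 times that in water for numbers 1 to 6. The gene was thus higher in all 6 numbers, as were 7.07% of the tested probes as deposited and 15.1% after the normalization described next. The ratios of consecutive numbers lay close together, with the lowest at numbers 5 and 6.

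**Figure D1:**
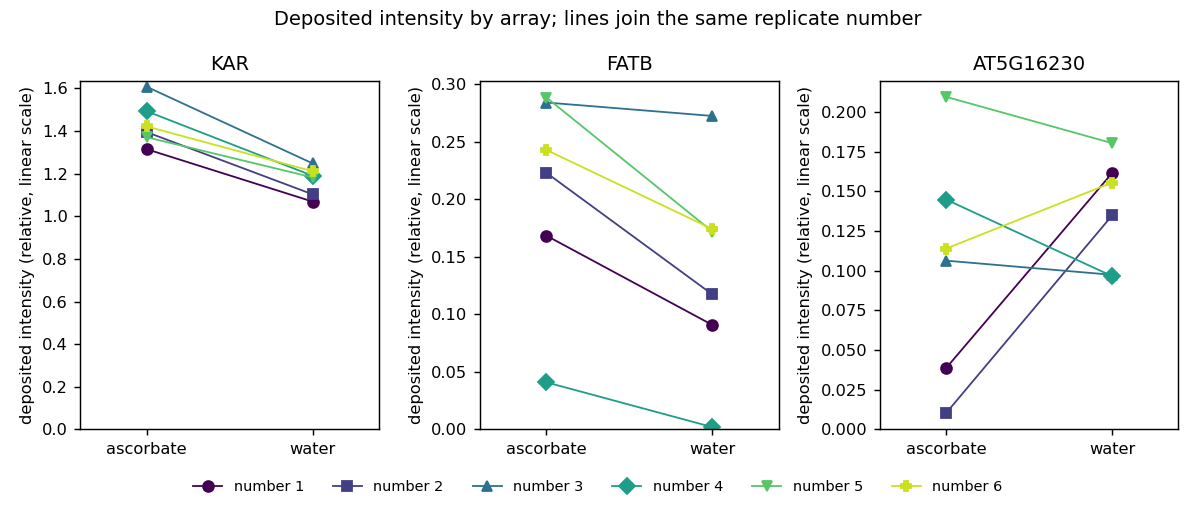
Deposited intensity (relative linear scale from 0) of KAR, FATB and AT5G16230 on each array, with ascorbate on the left and water on the right, and a line joining the samples of each replicate number. All 6 lines of KAR and of FATB are higher at the ascorbate end, the FATB samples of number 4 lie far below the rest, and the lines of AT5G16230 cross.

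In order of intensity among all probes of its array, KAR ranked at percentile 88.3 to 91.9 on ascorbate arrays and 81.1 to 88.9 on water arrays, with means of 89.9 ± 1.3 and 85.6 ± 3.1 (SD, n = 6 each). These ranks do not depend on how an array is scaled, but they depend on the probe as well as the transcript, so a rank is compared here only with that of the same probe. They overlapped between the groups, because water array 3 ranked above ascorbate array 5, but the ascorbate rank was the higher in each number.

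After quantile normalization of log2 intensities, KAR averaged 0.50 ± 0.12 in ascorbate and 0.19 ± 0.19 in water (SD, n = 6 each). The difference was 0.31 ± 0.10 log2 units (SE), a 1.24-fold level with a 95% interval of 1.07 to 1.43. In limma over all 3266 probes the adjusted p was 0.0505, which missed the threshold of 0.05, while 17.1% of the tested probes passed in either direction. With the replicate number as a block, which compares each ascorbate sample with the water sample of its number, KAR passed with a limma adjusted p of 0.034 (SE 0.08). In that fit 24.4% of all probes passed, and 13.9% passed as higher in ascorbate.

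The size of the KAR difference was close to that of a typical probe, and its spread was small. Its absolute log2 fold change was exceeded by 51.7% of the tested probes, and the median absolute value over all of them was 0.32. Its SD within groups was 0.156 log2 units, and 5.66% of the probes had a smaller one. The call under the block rested on a narrow margin. It was lost without any 1 of the 6 numbers, at limma adjusted p of 0.059 to 0.068, and on intensities as deposited, at 0.080.

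The KAR difference was not the same size in all numbers once the arrays were normalized. It was 0.51 and 0.49 log2 units in numbers 1 and 2, against 0.28, 0.23, 0.14 and 0.18 in numbers 3 to 6. As deposited, numbers 1 and 2 did not stand out, with log2 differences of 0.30 and 0.34 against 0.21 to 0.37 in the others. The larger normalized values thus occurred in the numbers whose ascorbate arrays had the low medians, and centring each array on its median raised them to 1.20 and 1.21. Without numbers 1 and 2 the KAR difference was 0.21 ± 0.09 (SE) with a limma adjusted p of 0.17, and of 0.039 with the block, where the SE was 0.04.

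**Figure D2:**
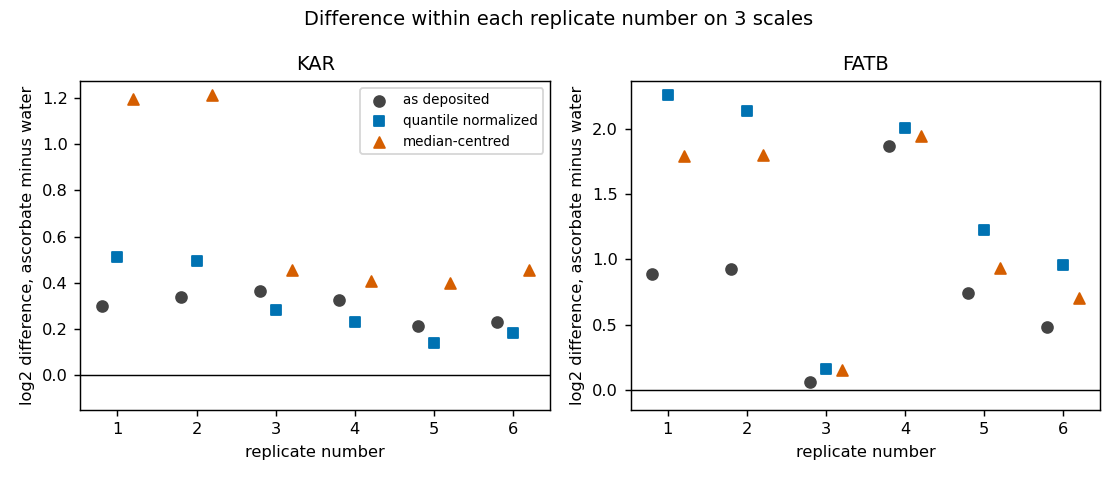
The log2 difference, ascorbate minus water, of KAR and FATB within each replicate number, as deposited with a floor on low values, after quantile normalization and after centring each array on its median. All differences are above 0, from 0.14 to 0.51 for KAR and 0.16 to 2.25 for FATB after quantile normalization, numbers 1 and 2 move most between the scales, and the FATB point of number 4 is against a water value at the floor.

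FATB gave low signal that varied widely between arrays, yet it too was higher in ascorbate in each replicate number. Its deposited intensity on ascorbate arrays 1 to 6 was 0.168, 0.223, 0.284, 0.0410, 0.288 and 0.243, against 0.0908, 0.117, 0.272, 0.00209, 0.172 and 0.174 on water arrays 1 to 6. The groups overlapped broadly, since water sample 3 was above 4 of the 6 ascorbate samples and ascorbate sample 4 was below 5 of the 6 water samples. The mean was 0.208 ± 0.093 in ascorbate and 0.138 ± 0.091 in water (SD, n = 6 each).

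Number 4 was the low sample of both groups, and its water value lay under the floor of 0.0112 that was set on that array, so no ratio is given for it. In numbers 1, 2, 3, 5 and 6 the deposited FATB intensity in ascorbate was 1.85, 1.90, 1.04, 1.68 and 1.39 times that in water. Number 3 was therefore nearly equal in both treatments, and the other 4 lay further apart. In rank, FATB stood at percentile 16.9 to 46.2 on ascorbate arrays and 13.3 to 36.2 on water arrays, with means of 35.1 ± 10.1 and 20.9 ± 8.0 (SD, n = 6 each).

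After quantile normalization FATB averaged -2.18 ± 0.88 in ascorbate and -3.64 ± 1.32 in water (log2 intensity, SD, n = 6 each). The difference was 1.46 ± 0.61 log2 units (SE), with a 95% interval of 0.12 to 2.80. It includes water sample 4 at the floor, and without number 4 it was 1.35 on the same scale. Normalization enlarged the difference in each of numbers 1, 2, 3, 5 and 6. The most enlarged were numbers 1 and 2, from 0.89 and 0.93 log2 units as deposited to 2.25 and 2.14. FATB also ranked low on water arrays 1, 2, 5 and 6, at percentile 16.6, 17.9, 20.6 and 20.6. The size of the difference depended on how low values were treated. With a floor at the 5th percentile it was 1.07, and with the 25th percentile of each array added to its values in place of a floor it was 0.48. Only 2.51% of the tested probes had a larger absolute difference, but 92.8% had a smaller SD within groups than the 1.12 of FATB, and the limma adjusted p was 0.13. An exact two-sided permutation test over the 12 samples gave an unadjusted p of 0.045 for the normalized values and 0.37 as deposited.

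With the replicate number as a block, the SE of the FATB difference shrank to 0.30 and FATB passed, at a limma adjusted p of 0.020. Both KAR and FATB were thus called higher in this fit, beside 13.9% of all probes. The residual SD of FATB was 1.12 without the block and 0.58 with it. This gain came with number 4, low in both groups. Without number 4 the SE was 0.35 both without and with the block. For KAR the residual SD was 0.156 without the block and 0.113 with it. The differences of FATB still ranged widely, at 2.25, 2.14, 0.16, 1.23 and 0.96 log2 units for numbers 1, 2, 3, 5 and 6, and number 3 was the smallest. That of number 4 is set by the floor. The blocked call was lost with the floor at the 5th percentile, at a limma adjusted p of 0.067.

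Leaving out number 4 removed the value at the floor. FATB then stood 1.35 ± 0.35 log2 units (SE) higher in ascorbate and passed without a block, at a limma adjusted p of 0.034, as did 8.36% of all probes in this direction, but with the block it was at 0.055. The blocked call was also lost without number 1, 2 or 5, at 0.055 to 0.061, and was kept without number 3 or 6, at 0.015 and 0.047. As deposited, with number 4 kept, the FATB difference was 0.83 log2 units. Its limma adjusted p was 0.43 without the block and 0.048 with it, where 3.89% of all probes were called higher. Number 4 enters this value at 1.86 log2 units, set by the floor. Numbers 1, 2, 3, 5 and 6 were at 0.89, 0.93, 0.06, 0.75 and 0.48 as deposited. Without numbers 1 and 2 but with number 4, the normalized FATB difference was 1.09, with a limma adjusted p of 0.52, and of 0.11 with the block.

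**Figure D3:**
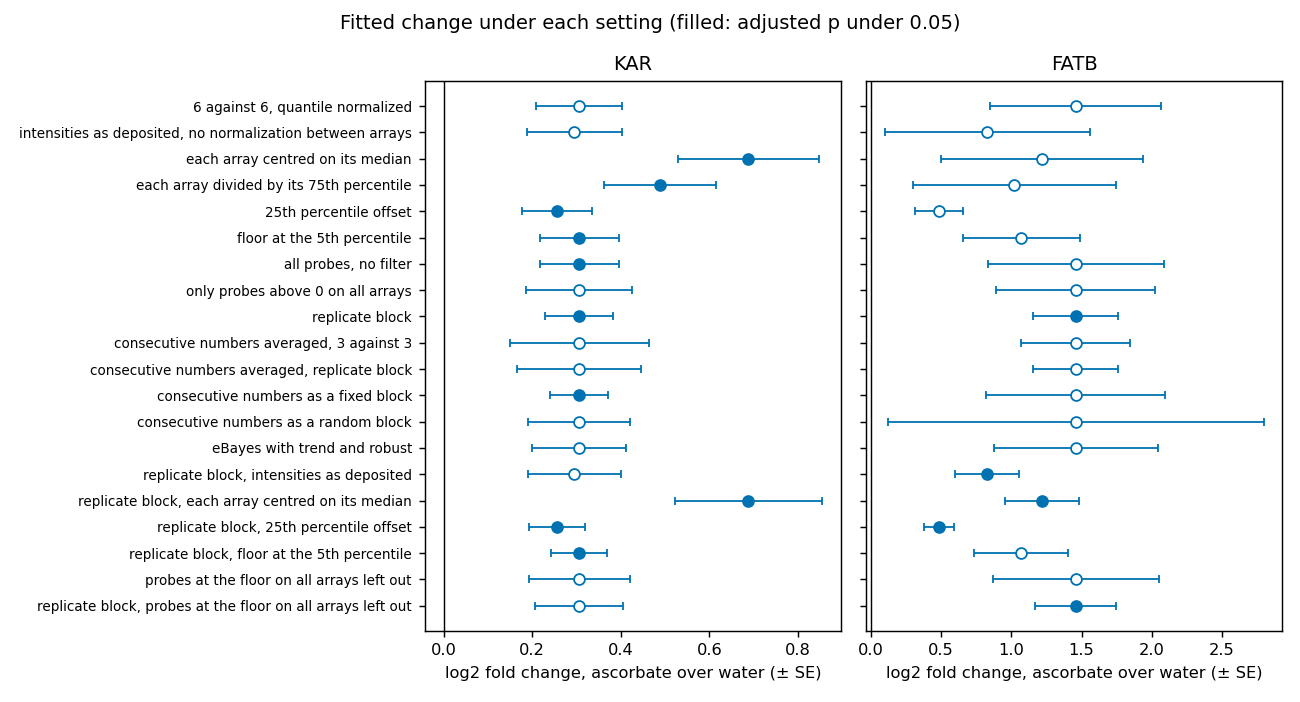
Log2 fold change of ascorbate over water with its SE for KAR and FATB under each limma setting that does not leave out a sample or number, with filled points where the adjusted p was under 0.05. All points lie above 0, KAR between 0.26 and 0.69 and FATB between 0.48 and 1.46, and each gene has both filled and open points.

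Both calls treat the numbers as independent samples. Consecutive numbers (1 and 2, 3 and 4, 5 and 6) resembled each other across the array, with a consensus correlation of 0.697 in limma. With them as a random block within each group, neither gene passed, at limma adjusted p of 0.18 for KAR and 0.65 for FATB. That fit applies the 1 correlation to every probe. FATB in numbers 3 and 4 was at -1.79 and -3.91 in ascorbate and -1.95 and -5.92 in water, the last at the floor. Its SE in that fit was 1.34. In that fit 148 of the 3266 probes passed. With consecutive numbers as a fixed block KAR passed at a limma adjusted p of 0.0081 and FATB did not, at 0.12, where 983 probes passed. Averaged over these consecutive numbers, the KAR difference was 0.50, 0.26 and 0.16 log2 units, and that of FATB was 2.20, 1.08 and 1.09, where the middle value includes the sample at the floor. Every averaged value was above 0 in both genes. With 3 averaged values a group, limma called neither, with adjusted p of 0.42 for KAR and 0.21 for FATB, and of 0.33 and 0.21 with a block. In that setting limma called 1 of the 3266 probes without the block.

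KAR and FATB did not follow each other closely from array to array. Their normalized levels correlated at a Pearson r of 0.45 over the 12 arrays, which share the treatment difference. Their differences by number correlated at 0.58. The FATB value at the floor enters both values.

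**Figure D4:**
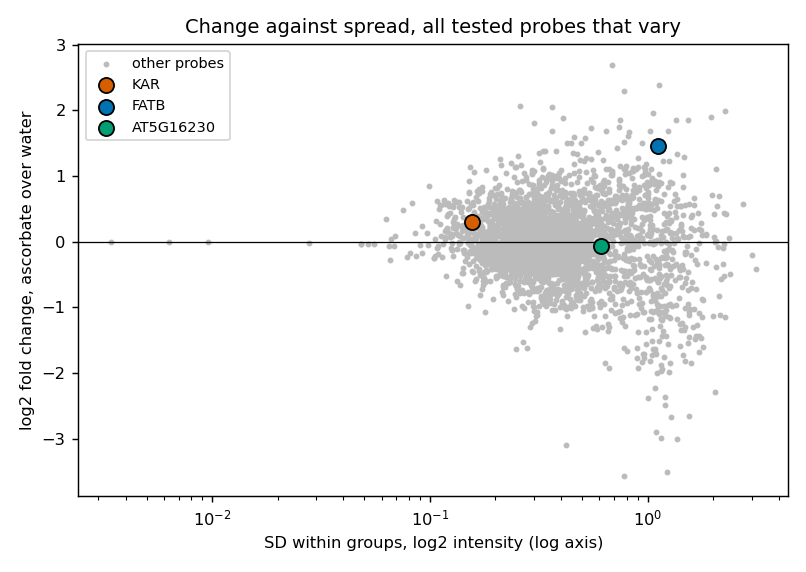
Log2 fold change of ascorbate over water against the SD within groups (log axis) for the 3219 tested probes that vary, with KAR, FATB and AT5G16230 marked. KAR combines a small change with a small spread, FATB combines a large change with a large spread, and AT5G16230 lies near 0.

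AT5G16230, listed here with the acyl-ACP desaturases that introduce the double bond into stearate, was the other measured gene of the lists. Its deposited intensity ranged from 0.0104 to 0.209 on ascorbate arrays and from 0.0966 to 0.180 on water arrays. The low end of the ascorbate range came from arrays 1 and 2, at 0.0387 and 0.0104, and 3 of the 6 numbers were higher in ascorbate. The normalized difference was -0.06 ± 0.33 log2 units (SE, limma adjusted p 0.93, and 0.90 with the block), with a 95% interval of -0.80 to 0.67. The interval is wide enough to hold a difference of the size of KAR's.

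Of the 3 listed genes, 0 passed limma adjusted over all probes and 2 had an unadjusted p under 0.05, as did 30.8% of all probes. With the replicate block 2 passed as higher and 0 as lower. The list thus adds AT5G16230 alone to KAR and FATB, and a median over it would restate the value of KAR. A further 8 probes are annotated to several genes with a listed lipid locus among them, 1 of them with FATB, and no gene is named from these. Of the 6 that were tested, 1 was called higher and 1 lower in limma, and 1 higher and 2 lower with the block, where 17.1% and 24.4% of all probes were called. They had a median difference of 0.27 log2 units and a range of -0.59 to 1.13.

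The single-gene probes most like each gene were sought among 548 probes above 0 on all arrays. By normalized level over the 12 arrays, KAR was most like AT3G12000, AT5G52660 and ETFQO, with Pearson r of 0.96, 0.92 and 0.88. ETFQO encodes the mitochondrial electron-transfer flavoprotein:ubiquinone oxidoreductase. AT3G12000 matched KAR in size too, with a difference of 0.30 ± 0.11 log2 units (SE, limma adjusted p 0.095, and 0.092 with the block). It was higher in ascorbate in 5 of 6 numbers. AT5G52660 had a larger normalized difference, at 1.52 ± 0.42 log2 units (SE), and passed in limma (adjusted p 0.032, and 0.027 with the block). Its signal was low, with mean percentiles of 20.8 in ascorbate and 15.3 in water, and the size depended on the normalization. In numbers 5 and 6 its difference was 0.02 and 0.015 log2 units as deposited, against 1.035 and 1.004 after normalization. In numbers 1 to 4 it lay between 0.1996 and 0.948 as deposited, and between 0.527 and 2.76 after normalization. The normalized difference of ETFQO was 0.46 ± 0.17 (SE, limma adjusted p 0.082, and 0.10 with the block). Its deposited mean was nearly equal, at 0.296 in ascorbate and 0.293 in water. ETFQO was higher in ascorbate in 2 of 6 numbers as deposited, and in 4 of 6 after normalization.

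By the 6 differences, KAR was most like AT3G04650, AT5G26850 and AT2G31800, with r of 0.99, 0.99 and 0.97 over 6 numbers. Their sizes differed. AT2G31800 was close to KAR, at 0.28 ± 0.17 log2 units (SE, limma adjusted p 0.28), AT5G26850 was 1.03 ± 0.20 log2 units (SE) higher in ascorbate (limma adjusted p 0.0055), and AT3G04650 had a difference of -0.33 ± 0.22 (adjusted p 0.34). Numbers 1 and 2 had the uppermost differences in KAR and in each of these genes.

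By level, FATB was most like AT3G25840, AT1G11470 and AT4G20760, with r of 0.91, 0.85 and 0.82 over 12 arrays. AT3G25840 shared the low values of number 4, at -2.15 in ascorbate and -2.57 in water on the normalized log2 scale, against -1.30 to -0.76 on the other ascorbate arrays and -1.98 to -1.57 on the other water arrays. Its difference was 0.61 ± 0.23 log2 units (SE, limma adjusted p 0.0995), and with the block it passed at 0.0051. AT3G25840 was higher in ascorbate in all 6 numbers after normalization and in 4 as deposited. In numbers 1 and 2 its deposited intensity in ascorbate was 0.86 and 0.74 times that in water. AT1G11470, at 1.33 ± 0.26 (SE), passed in both fits (limma adjusted p 0.0065, and 0.0052 with the block). AT4G20760, at 0.27 ± 0.21 (SE), passed in neither (limma adjusted p 0.42, and 0.19 with the block). As deposited, AT4G20760 had means of 0.284 in ascorbate and 0.319 in water. It was higher in ascorbate in 1 of 6 numbers on that scale, and in 5 after normalization. By the 6 differences, FATB was most like AT5G52530, AT1G11470 and AT4G02040, with r of 0.98, 0.94 and 0.92. The FATB difference of number 4, set by the floor, enters these values. The correlations are the highest of many and carry no test, and the arrays they run over share treatment, scaling and the likeness of consecutive numbers.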

How the data were processed

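The deposited values were probe intensities, 1 per probe and array. Scanner, background correction and scaling: not given in the sources used here. The annotation gave 1 gene for 692 probes, several for 870 and none for 1877. RefSeq names (TAIR10.1) matched 690 of the 692. No coordinates are given, since no build is named for the array. Values at or under the 1st percentile of an array's positive values were raised to it (floors 0.0075 to 0.0545), log2 was taken, and arrays were quantile normalized. Excluding 173 probes listed at 0 throughout left 3266. Ascorbate was compared with water in limma 3.58.1 (R 4.3.3), two-sided, with Benjamini-Hochberg adjustment over all tested probes and a threshold of 0.05. The method was tested on simulated data. These had neither likeness of consecutive numbers nor a floor on low values, so the test does not cover those features.

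Members and lists were chosen with earlier results of these data known. Named genes were KAR, FATB, listed genes with a single-gene probe, and the 3 probes most like each member by level and by difference.

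Deviations from group means of the same number correlated at 0.35 to 0.56 across probes, above the limit of 0.1 for each number. The numbers were therefore used to pair the samples, although the labels state no pairing. Consecutive numbers within a group correlated too, at 0.09 to 0.74. What the samples of a number share was not tested. The fit without a block was fixed as the first analysis.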

Additional observations from a re-analysis of the deposited data

Results flagged for a closer look

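A single sample stood well apart from its group in 3 of the 28 groups of 6 normalized values examined, and about 5% of groups would do so by chance. FATB in ascorbate sample 4 was at -3.915 log2 units, against -2.19 to -1.50 in the other 5, and its deposited intensity was 0.0410. AT3G12000 in ascorbate sample 5 was at -0.17, against 0.06 to 0.16. AT5G52530 in ascorbate sample 3 was at -3.83, against -2.68 to -2.13.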

How the results depend on the processing

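KAR and FATB were higher in ascorbate in all 49 alternatives run for each, and the side of the threshold changed in 13 for KAR and 9 for FATB. The shared direction is not a separate result of each setting. Many settings kept the same difference, and as every number was higher in ascorbate, leaving out a number could not reverse it. KAR, at 0.31 log2 units and an adjusted p just over the threshold, passed after median centring (0.69, and 0.69 with the replicate block), with scaling to the 75th percentile (0.49), with the 25th percentile offset (0.26, and 0.26 with the block), and at 0.31 with a floor at the 5th percentile, with and without the block, with no probe filter, with the replicate block, with consecutive numbers as a fixed block and by the exact rank-sum test. FATB passed with the replicate block at 1.46, as deposited with the block at 0.83, centred with the block at 1.22, and with the offset and block at 0.48, but not with the block and a floor at the 5th percentile. Exact permutation gave unadjusted p-values, which were set against the unadjusted p of limma, and 1 was on the other side of 0.05, FATB as deposited (0.83, p 0.37). Leaving out 1 sample or number moved KAR between 0.25 and 0.35 and FATB between 1.001 and 1.81. KAR passed without water sample 3 (0.35) and, with the block, without numbers 1 and 2 (0.21). FATB passed without number 4 (1.35) and, with the block, without number 3 or 6 (1.72 and 1.56).

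Leaving out 47 probes at the floor on every array, which have no spread, raised limma's prior degrees of freedom from 1.27 to 2.23. KAR then lost its blocked call (0.31, adjusted p 0.063) and FATB kept it (1.46, adjusted p 0.015). All settings that join the block with another choice, that leave out these probes or numbers 1 and 2 together, and the permutations of signs or as deposited were chosen after seeing the data.

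Of the 3 listed genes, 2 were called with the replicate block, and 2 with the block after centring or with the offset. Other settings called 0 or 1, also when samples or numbers were left out (0 to 1). Over all probes 559 were called, 1 and 0 by limma with consecutive numbers averaged without and with a block (501 and 625 at an unadjusted p under 0.05), 148 with them as a random block, 983 as a fixed block, 946 with the offset and replicate block, 315 to 581 with 1 sample or number left out, and 409 to 622 with the block and 1 number left out. Of the calls, 56.9% were higher in ascorbate, 21.7% as deposited and 72.7% after centring. The median difference of all probes was 0.00, -0.35 and 0.04 on these scales, so KAR as deposited lay further above it than the normalized value. The cause of these changes was not tested.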
